A study of Arabidopsis thaliana with 12 samples.

Results

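The genes described here are 9 transcription factor genes of Arabidopsis thaliana that hold back flowering or belong to the families that do, taken by their gene identifiers. The AP2-like genes are TOE1 (AT2G28550, RAP2.7 in RefSeq), TOE2 (AT5G60120), TOE3 (AT5G67180), SMZ (AT3G54990), SNZ (AT2G39250) and AP2 (AT4G36920). The TEMPRANILLO and RAV genes are TEM1 (AT1G25560), TEM2 (AT1G68840) and RAV1 (AT1G13260). The tables hold 25835 genes, of which 19170 had a mean level of at least 1 FPKM (fragments scaled by gene length and by the size of the library) and were tested, and all 9 genes were among these.

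The series compared an eif4e mutant with wild type (WT), both in the Columbia background, at the level of total polyadenylated mRNA and of mRNA bound to immunopurified ribosomes. Whole seedlings were frozen at 9 days of age at zeitgeber time 16 h, the end of the light period, after growth at 22 °C in 16 h of light and 8 h of darkness. The groups were ribosome-bound mRNA of eif4e, ribosome-bound mRNA of WT, total mRNA of eif4e and total mRNA of WT, with 3 libraries each and 12 in all. The labels name neither the mutant allele nor a ribosome tag. eIF4E recognises the cap at the start of an mRNA and so recruits it to the ribosome.

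The AP2-like proteins carry a pair of AP2 DNA-binding domains and repress the florigen gene FT in leaves or floral identity genes in the meristem. Their mRNAs carry a site for the microRNA miR172, which acts on them both by cleavage and by blocking translation, and whose level rises as the plant ages while that of miR156 falls. TEM1, TEM2 and RAV1 are of another kind, with 1 AP2 domain and a B3 domain, and are not miR172 targets. TEM1 and TEM2 bind FT and the gibberellin synthesis genes GA3OX1 and GA3OX2 and repress them.

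Each library held 17058704 to 24673644 counts, and replicates of a group correlated at 0.976 to 0.993 (log2 CPM). EIF4E1, the gene the mutant is named after, was at 12.3, 11.6 and 13.9 FPKM in ribosome-bound eif4e libraries, against 71.8, 92.9 and 87.2 FPKM in ribosome-bound WT libraries. In total mRNA it was at 8.28, 24.2 and 8.29 FPKM in eif4e libraries, against 45.8, 44.0 and 44.2 FPKM in WT libraries. Total eif4e replicate 2 thus stood apart from the other total eif4e libraries, and results that rest on it are also given without it. Replicate 2 of eif4e also stood high for TEM1, TEM2 and RAV1, in both kinds of mRNA. Marker genes differed between the genotypes too. The summed level of 3 leaf mesophyll markers ran from 12706 to 15059 FPKM in total eif4e libraries and from 8252 to 9260 FPKM in total WT libraries, and that of 5 root markers from 1591 to 1995 FPKM in total eif4e libraries and from 2227 to 2848 FPKM in total WT libraries. In ribosome-bound mRNA the mesophyll sum ran from 16088 to 21267 FPKM in eif4e and from 12462 to 16290 FPKM in WT, and the root sum from 1138 to 1425 FPKM in eif4e and from 1683 to 1881 FPKM in WT. In each kind of mRNA, 3 of 5 root markers were called lower in eif4e and 3 of 3 mesophyll markers higher. Of 3 guard cell markers, 2 were called higher in total mRNA and 3 on ribosomes. Of 3 dividing cell markers, 0 were called in total mRNA and 1 lower on ribosomes. The 2 phloem markers were not called. The shares over all tested genes were 10.4% higher and 6.54% lower in total mRNA, and 15.4% and 12% on ribosomes. In whole seedlings, fewer cells of a type and less RNA per cell cannot be told apart, and the part of these differences in the results below was not tested. The flower organ markers AP3, PI and SEP1 summed to at most 1.25 FPKM in any library, and the meristem marker CLV3 had a mean of at most 0.042 FPKM in a group. The other meristem marker, STM, was called higher in total mRNA of eif4e (log2 change 0.59) and was not called on ribosomes (-0.18). Its ratio of ribosome-bound to total mRNA was called lower in eif4e than in WT (-0.76).

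Expression of the 9 genes spanned a wide range, and the order was nearly the same in every group. TEM2 was the highest, with a mean of 138 FPKM over the 12 libraries, which put it at percentile 95.2 of all tested genes. TOE1 (73.0 FPKM, percentile 90.3), RAV1 (69.8 FPKM, percentile 89.9) and TEM1 (67.0 FPKM, percentile 89.4) formed the next tier. TOE2 (22.2 FPKM), SNZ (19.7 FPKM) and SMZ (19.7 FPKM) followed at percentiles 65.6 to 68.7, then AP2 at 12.5 FPKM (percentile 50.9) and TOE3 at 7.35 FPKM (percentile 34.2). These 5 tiers did not overlap in any of the 4 groups, whereas the genes within a tier mostly did.

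**Figure D1:**
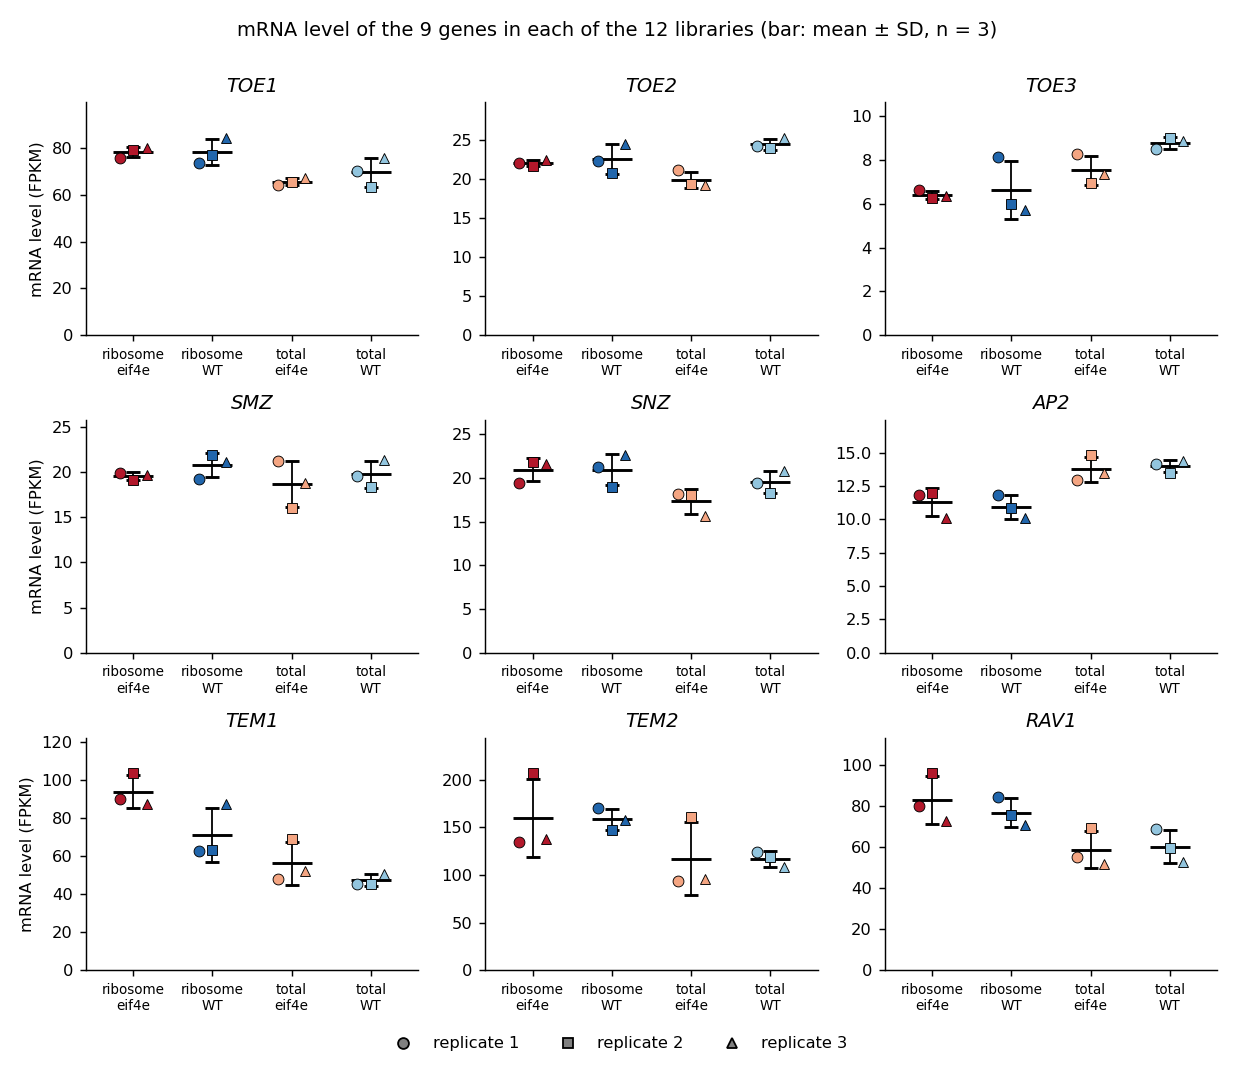
Level of each of the 9 genes in FPKM (vertical axes, each from 0) in each of the 12 libraries, grouped as ribosome-bound eif4e, ribosome-bound WT, total eif4e and total WT. Coloured symbols are libraries with the shape giving the replicate number, and bars are the mean ± SD of 3 libraries. TEM1, TEM2 and RAV1 of eif4e replicate 2 (squares) lie above the other eif4e libraries of the same kind of mRNA, as at 207 FPKM for ribosome-bound TEM2.

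The place of TEM1 within its tier depended on the kind of mRNA and the genotype. In ribosome-bound mRNA of eif4e it had 90.0, 103 and 87.4 FPKM, above the 75.8, 79.3 and 80.0 FPKM of TOE1. In total mRNA of WT the order was the other way round, with 45.3, 45.5 and 50.8 FPKM for TEM1 and 70.0, 63.3 and 75.7 FPKM for TOE1. TOE2 lay above SNZ and SMZ in total WT libraries, above SNZ in total eif4e libraries and above SMZ in ribosome-bound eif4e libraries, and the other ranges of these genes overlapped.

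TOE1 was the largest contributor among the AP2-like genes in every group. The 6 AP2-like genes summed to 159 ± 2.56 FPKM in ribosome-bound eif4e, 160 ± 7.27 FPKM in ribosome-bound WT, 143 ± 2.86 FPKM in total eif4e and a sum between 146 and 166 FPKM in total WT (SD, n = 3 each). TOE1 held 49.4% of the sum in ribosome-bound eif4e, 48.9% in ribosome-bound WT, 46.0% in total eif4e and 44.6% in total WT. The 3 TEM and RAV genes summed to 337 ± 60.6 FPKM in ribosome-bound eif4e, 306 ± 17.3 FPKM in ribosome-bound WT, 232 ± 58.1 FPKM in total eif4e and 224 ± 13.3 FPKM in total WT, and TEM2 held 47.1% to 52.0% of it. Replicate 2 had the highest sum in the mutant, with 406 FPKM in ribosome-bound mRNA and 299 FPKM in total mRNA.

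The first comparison asked which of the genes had another mRNA level in the mutant. In total mRNA, 0 of the 9 genes were called higher (10.4% of all tested genes were) and 0 were called lower (6.54% of all tested genes), at an adjusted p under 0.05 in edgeR's quasi-likelihood test with Benjamini-Hochberg adjustment over all tested genes. DESeq2 also called 0, and at an unadjusted p under 0.05 in edgeR there were 2, TOE2 and TEM1. The median log2 change of the 9 genes was 0.048, beside -0.0035 over all tested genes. Fitted changes carry a TMM scaling factor (trimmed mean of M values), which was 1.05 to 1.09 in total WT libraries and 0.928 to 0.993 in the others, so a fitted change of total mRNA lies above the plain ratio of FPKM values.

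TOE2, a repressor of FT and close relative of TOE1, was at 21.1, 19.3 and 19.2 FPKM in total eif4e libraries, against 24.2, 23.9 and 25.2 FPKM in total WT libraries. All mutant libraries lay below all WT libraries, also after scaling. The fitted log2 change was -0.17 ± 0.07 (SE) with an adjusted p of 0.116 in edgeR, so TOE2 did not pass. It did pass where counts were scaled by library size alone, with a log2 change of -0.28 and an adjusted p of 0.0186, and that scaling also moved the median of all tested genes to -0.11. TOE2 also passed with limma at pseudocounts 1 (adjusted p 0.0127) and 0.1 (0.0138) and with the length correction and replicate block together (0.0492).

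TEM1, which represses FT and gibberellin synthesis genes, was at 47.7, 68.7 and 51.9 FPKM in total eif4e libraries, against 45.3, 45.5 and 50.8 FPKM in total WT libraries. The mutant libraries overlapped WT in FPKM but lay above all WT libraries after scaling, and the value of replicate 2 was the highest. The log2 change was 0.38 ± 0.15 with an adjusted p of 0.0996. With the replicate number as a block, TEM1 passed in total mRNA, with a log2 change of 0.37 ± 0.12 and an adjusted p of 0.0399. Without total eif4e replicate 2 its log2 change was 0.21 ± 0.13 and the adjusted p 0.313.

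TEM2, the closest relative of TEM1, was at 93.5, 161 and 95.9 FPKM in total eif4e libraries, against 124, 118 and 108 FPKM in total WT libraries. Replicate 2 of the mutant lay above every WT library and the other mutant libraries lay below them. Its log2 change was 0.13 ± 0.20 (adjusted p 0.693) with all libraries and -0.17 ± 0.15 (adjusted p 0.459) without total eif4e replicate 2, so no direction can be given. RAV1, which in Arabidopsis restrains growth and promotes leaf senescence, had 55.5, 69.3 and 51.9 FPKM in total eif4e libraries, against 68.7, 59.7 and 52.7 FPKM in total WT libraries, a log2 change of 0.092 ± 0.13 (adjusted p 0.661). With each library left out in turn, the RAV1 change ran from -0.040 to 0.19 (adjusted p 0.410 to 0.977, edgeR).

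TOE1, SMZ, SNZ, AP2 and TOE3 had log2 changes between -0.093 and 0.10 in total mRNA, with adjusted p from 0.377 to 0.767 in edgeR. TOE1, which binds CONSTANS and represses FT, had 64.4, 65.3 and 67.2 FPKM in total eif4e, against 70.0, 63.3 and 75.7 FPKM in total WT. The widest 95% intervals of the 5 genes were those of TOE3, from -0.37 to 0.18, and of SMZ, from -0.17 to 0.27. SNZ had 18.1, 18.1 and 15.7 FPKM in total eif4e, against 19.4, 18.3 and 20.8 FPKM in total WT, and these lay apart in FPKM but overlapped after scaling.

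The second comparison asked the same of the mRNA on ribosomes. Here 1 of 9 genes, TEM1, was called higher in eif4e (15.4% of all tested genes were) and 0 of 9 lower (12% of all tested genes), and TEM1 was also the only one with an unadjusted p under 0.05 and the only one that DESeq2 called. A single gene among 9 is no larger a share than that of all tested genes. The median log2 change was 0.049 over the 9 genes and 0.0080 over all tested genes.

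TEM1 was at 90.0, 103 and 87.4 FPKM in ribosome-bound eif4e libraries, against 62.5, 63.2 and 87.2 FPKM in ribosome-bound WT libraries. All mutant libraries lay above all WT libraries, but WT replicate 3 came close to the lowest mutant library. The log2 change was 0.44 ± 0.15, a 1.36-fold higher level, with an adjusted p of 0.0427 in edgeR. The exact two-sided permutation test of the means gave 0.1, the smallest p that 3 against 3 libraries allow. This call stood near the threshold. It held when total eif4e replicate 1, total eif4e replicate 2 or ribosome-bound WT replicate 3 was left out (adjusted p 0.0403, 0.0201 and 0.00888), and was lost when any of the other 9 libraries was left out (adjusted p 0.0514 to 0.142, log2 change 0.36 to 0.48). By adjusted p it was also lost with library size alone (0.0677), limma at pseudocount 1 (0.0686), limma at pseudocount 0.1 (0.0687), a fit of only the compared groups (0.0648) and a correction for gene length (0.0562). It held with the replicate number as a block (adjusted p 0.0119).

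For the remaining genes the ribosome-bound levels of the genotypes overlapped. TEM2 had 135, 207 and 138 FPKM in eif4e libraries, against 170, 147 and 158 FPKM in WT libraries, a log2 change of 0.054 ± 0.20 (adjusted p 0.864), and replicate 2 of the mutant again lay above all others. RAV1 had 80.2, 96.2 and 73.0 FPKM in eif4e libraries, against 84.4, 75.8 and 70.6 FPKM in WT libraries, with a log2 change of 0.15 ± 0.13 (adjusted p 0.403). The AP2-like genes moved little, between -0.039 for SMZ and 0.093 for AP2, with adjusted p from 0.388 to 0.997. TOE2, the lowest of them by unadjusted p in total mRNA, had 22.0, 21.7 and 22.4 FPKM in eif4e and 22.3, 20.7 and 24.5 FPKM in WT on ribosomes, a log2 change of 0.018 ± 0.07.

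**Figure D2:**
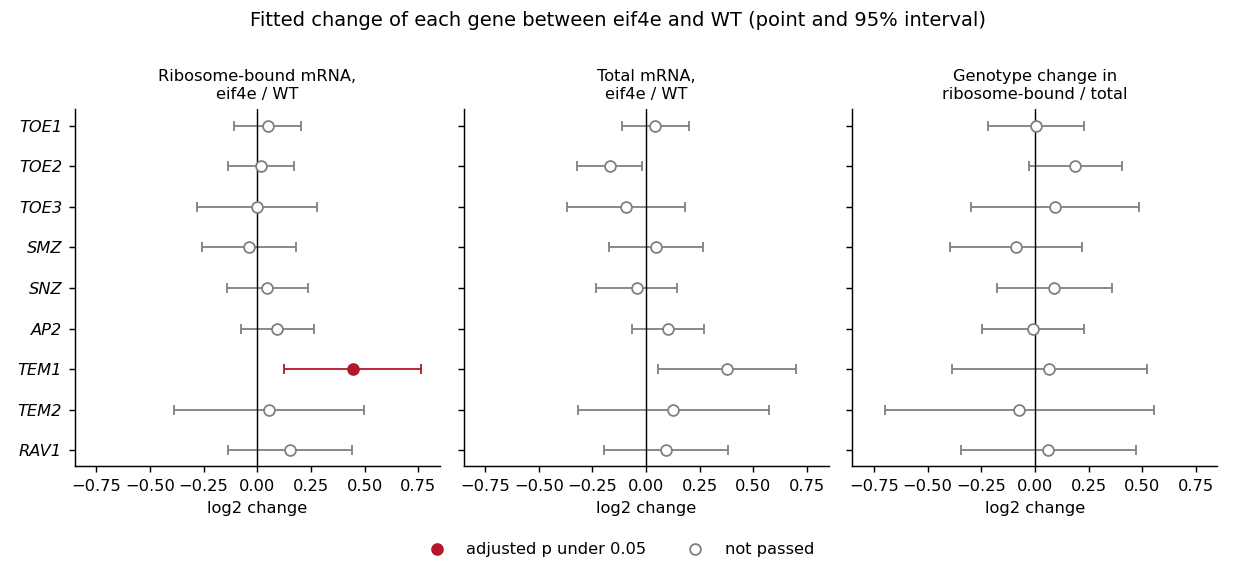
Fitted log2 change (horizontal axis) of each gene for eif4e over WT in ribosome-bound mRNA, for eif4e over WT in total mRNA, and for the genotype change in the ratio of ribosome-bound to total mRNA. Points are estimates, bars are 95% intervals, and the filled point is the only one with an adjusted p under 0.05, TEM1 in ribosome-bound mRNA at 0.44; every interval of the last panel includes 0.

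The third comparison asked whether the mutation altered the ratio of ribosome-bound to total mRNA of each gene, relative to other genes. It was the difference between the ribosome-bound and the total change. As libraries were scaled to one another, this comparison cannot show a shift shared by all mRNAs. It called 0 of 9 genes higher (1.67% of all tested genes) and 0 of 9 lower (2.35% of all tested genes), and 0 of the 9 had an unadjusted p under 0.05. DESeq2 and the other alternatives likewise called 0. TOE2 came closest to passing, with an interaction of 0.19 ± 0.10 and an adjusted p of 0.324 in edgeR. TEM1 had 0.067 ± 0.21. For TOE1, the most abundant AP2-like mRNA, it was 0.0053 with a 95% interval from -0.22 to 0.23. TEM2 had the widest interval, from -0.70 to 0.55.

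**Figure D3:**
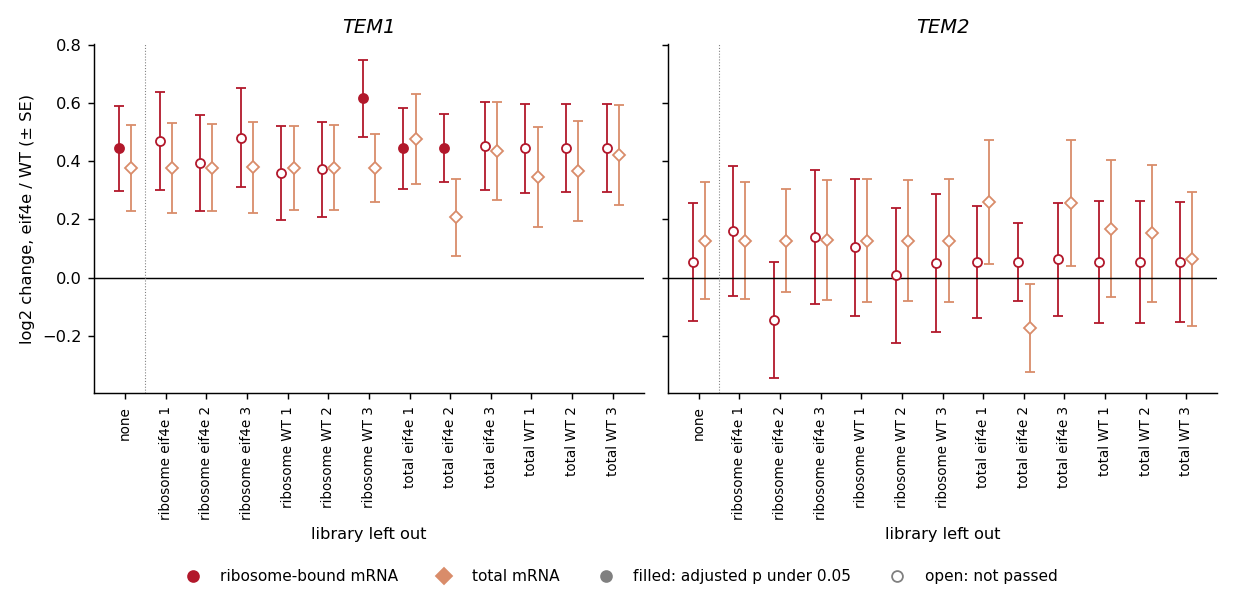
Fitted log2 change of TEM1 and TEM2 for eif4e over WT (vertical axis, ± SE) with no library left out and with each of the 12 libraries left out in turn (horizontal axis), in ribosome-bound mRNA (circles) and total mRNA (diamonds). Filled symbols have an adjusted p under 0.05. TEM1 stays between 0.21 and 0.62, while TEM2 in total mRNA lies at -0.17 without total eif4e replicate 2 and at 0.26 without replicate 1.

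More of the genes were called between ribosome-bound and total mRNA than between the genotypes. In eif4e, 5 of 9 genes were called higher in ribosome-bound mRNA (29.1% of all tested genes) and 1 of 9 lower (29.3% of all tested genes). In WT it was likewise 5 of 9 higher (33.8% of all tested genes) and 1 of 9 lower (33.6% of all tested genes). TOE1, SNZ, TEM1 and RAV1 were higher in both genotypes, TOE2 was called in eif4e and TEM2 in WT, and AP2 was lower in both. The median log2 change was 0.29 over the 9 genes and -0.0080 over all tested genes in eif4e, and 0.22 over the 9 genes and 0.00016 over all tested genes in WT. These counts and medians are descriptions, and nothing particular to the 9 genes is read from them. Marker genes differed between the kinds of mRNA too. All 5 root markers were called lower on ribosomes (median log2 change -1.65 in eif4e, -1.43 in WT). All 3 guard cell markers were too (-0.86 and -0.98). The 2 phloem markers were called higher (0.62 and 0.68). Of 3 mesophyll markers, 1 was higher in each genotype and 1 lower in eif4e, and 0 of 3 dividing cell markers were called. The part of these differences in the ratios of the 9 genes was not tested.

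TEM1 had the largest of these changes. Its 90.0, 103 and 87.4 FPKM in ribosome-bound eif4e stood against 47.7, 68.7 and 51.9 FPKM in total eif4e, a log2 change of 0.77 ± 0.15 (adjusted p 8.5e-04, edgeR). In WT it had 62.5, 63.2 and 87.2 FPKM in ribosome-bound mRNA, against 45.3, 45.5 and 50.8 FPKM in total mRNA, a log2 change of 0.71 ± 0.15 (adjusted p 0.0012). The groups lay apart in both genotypes, and TEM1 passed with each library left out in turn and under all 11 other settings.

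RAV1 behaved in the same direction. It had 80.2, 96.2 and 73.0 FPKM in ribosome-bound eif4e, against 55.5, 69.3 and 51.9 FPKM in total eif4e (log2 change 0.53 ± 0.13, adjusted p 0.00484). Ribosome-bound WT had 84.4, 75.8 and 70.6 FPKM, against 68.7, 59.7 and 52.7 FPKM in total WT (log2 change 0.47 ± 0.13, adjusted p 0.00804). The groups lay apart, and these calls too held with each library left out in turn and under all 11 other settings.

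TEM2 had 135, 207 and 138 FPKM in ribosome-bound eif4e, against 93.5, 161 and 95.9 FPKM in total eif4e. Total eif4e replicate 2 lay above ribosome-bound replicates 1 and 3, so the groups overlapped, though within each replicate number the ribosome-bound library was the higher one. The log2 change was 0.48 ± 0.20 (adjusted p 0.0597) and did not pass. It passed with the replicate number as a block (0.49, adjusted p 0.0114), with that block and the length correction (adjusted p 0.00974), with DESeq2 (0.0287) and with no filter on low values (0.0464), and also without total eif4e replicate 2 (0.78, adjusted p 0.00152) and without ribosome-bound eif4e replicate 1 (0.59, adjusted p 0.0440). In WT the 170, 147 and 158 FPKM in ribosome-bound mRNA lay above the 124, 118 and 108 FPKM in total mRNA, with a log2 change of 0.56 ± 0.20 (adjusted p 0.0294). That call was lost when total WT replicate 1, 2 or 3 or ribosome-bound WT replicate 1 or 3 was left out (adjusted p 0.0507 to 0.0889), and with library size alone (adjusted p 0.0827) or limma at pseudocounts 1 (0.0807) and 0.1 (0.0810).

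Among the AP2-like genes, TOE1 had 75.8, 79.3 and 80.0 FPKM in ribosome-bound eif4e, against 64.4, 65.3 and 67.2 FPKM in total eif4e (log2 change 0.29 ± 0.07, adjusted p 0.00441). In WT it had 73.5, 76.8 and 84.3 FPKM in ribosome-bound mRNA, against 70.0, 63.3 and 75.7 FPKM in total mRNA (log2 change 0.29 ± 0.07, adjusted p 0.00392). The eif4e groups lay apart in FPKM and the WT groups only after scaling. With library size alone the WT change was 0.16 and did not pass (adjusted p 0.0744), nor did it with limma at pseudocounts 1 (0.0625) and 0.1 (0.0626).

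SNZ, a relative of SMZ and a repressor of flowering, had 19.4, 21.8 and 21.6 FPKM in ribosome-bound eif4e, against 18.1, 18.1 and 15.7 FPKM in total eif4e (log2 change 0.31 ± 0.09, adjusted p 0.00893). In WT it had 21.3, 19.0 and 22.6 FPKM on ribosomes, against 19.4, 18.3 and 20.8 FPKM in total mRNA (log2 change 0.22 ± 0.09, adjusted p 0.0388). The WT groups overlapped in FPKM and lay apart only after scaling. That WT call was lost without total WT replicate 1 or 2 or without ribosome-bound WT replicate 1 or 3 (adjusted p 0.0881 to 0.138). The WT call held under 4 of the 11 other settings. It was lost with DESeq2 (adjusted p 0.0653), the filter of 5 FPKM (0.0997), library size alone (log2 change 0.099, adjusted p 0.348), limma at either pseudocount and the length correction with or without the replicate block.

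AP2, which specifies sepals and petals and represses AGAMOUS, was lower on ribosomes. It had 11.8, 12 and 10.1 FPKM in ribosome-bound eif4e, against 13, 14.8 and 13.5 FPKM in total eif4e (log2 change -0.25 ± 0.08, adjusted p 0.0168). In WT it had 11.9, 10.8 and 10.1 FPKM in ribosome-bound mRNA, against 14.1, 13.5 and 14.4 FPKM in total mRNA (log2 change -0.24 ± 0.08, adjusted p 0.0167). The groups lay apart in both genotypes. The eif4e call was lost without total eif4e replicate 2 (adjusted p 0.0692) or ribosome-bound eif4e replicate 3 (adjusted p 0.0725), and the WT call without ribosome-bound WT replicate 3 (adjusted p 0.0667).

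TOE2 was called in eif4e, with 22.0, 21.7 and 22.4 FPKM in ribosome-bound mRNA, against 21.1, 19.3 and 19.2 FPKM in total mRNA (log2 change 0.19 ± 0.07, adjusted p 0.0387). Its WT values, 22.3, 20.7 and 24.5 FPKM on ribosomes against 24.2, 23.9 and 25.2 FPKM in total mRNA, gave a log2 change of -0.0019 ± 0.07. The difference between the genotypes is the interaction above, which did not pass. The eif4e call was lost when total WT replicate 1, 2 or 3, total eif4e replicate 2 or 3 or ribosome-bound eif4e replicate 1 or 3 was left out (adjusted p 0.0510 to 0.127). It held under 5 of the 11 other settings and was lost with DESeq2 (adjusted p 0.0561), the fit of only the compared groups (0.0672), limma at pseudocounts 1 (0.0833) and 0.1 (0.0826), the filter of 5 FPKM (0.0966) and library size alone (0.110).

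TOE3 and SMZ passed in neither genotype in the edgeR fit of all libraries without a block or length correction. TOE3, which regulates floral patterning and represses AGAMOUS, had 6.62, 6.28 and 6.37 FPKM in ribosome-bound eif4e, against 8.27, 6.96 and 7.38 FPKM in total eif4e, with a log2 change of -0.20 ± 0.13 (adjusted p 0.204). In WT it had 8.16, 6.01 and 5.74 FPKM on ribosomes, against 8.49, 9.02 and 8.88 FPKM in total mRNA, with a log2 change of -0.29 ± 0.13 (adjusted p 0.0593). The WT change passed under 6 of the 11 other settings. These were the replicate number as a block (-0.30, adjusted p 0.0261), that block with the length correction (0.0248), the filter of 5 FPKM (0.0281), library size alone (-0.41, adjusted p 0.0119) and limma at pseudocounts 1 (0.00894) and 0.1 (0.00917). Without ribosome-bound WT replicate 1 it was -0.46 with an adjusted p of 0.00226. SMZ, whose repression of FT needs FLM, had 19.9, 19.1 and 19.6 FPKM in ribosome-bound eif4e, against 21.1, 16.0 and 18.7 FPKM in total eif4e, and 19.2, 21.8 and 21.1 FPKM in ribosome-bound WT, against 19.5, 18.4 and 21.3 FPKM in total WT. Its log2 changes were 0.10 ± 0.10 in eif4e and 0.19 ± 0.10 in WT.

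Gene length moved with the ratio of ribosome-bound to total mRNA across the tested genes. Long genes had lower ratios, with a Spearman correlation across 19170 genes of -0.62 in eif4e and -0.72 in WT, and the genotype change in that ratio correlated with length at 0.63. Genes are not independent replicates. The 9 genes lay at length percentiles from 27.2 (SMZ) and 35.4 (SNZ) through 41.7 (TEM1), 51.5 (TOE3), 53.0 (RAV1), 57.9 (TEM2) and 67.7 (AP2) to 75.7 (TOE1) and 81.2 (TOE2). A fit with a length curve for each library, added after the data had been seen, therefore moved several of them.

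With that length correction the shortest genes, SMZ and SNZ, had lower ratios and the longest, TOE1 and TOE2, higher ones. SMZ had log2 changes of ribosome-bound over total mRNA of -0.26 in eif4e (adjusted p 0.0635) and -0.30 in WT (adjusted p 0.0337), and SNZ of 0.082 in eif4e and -0.077 in WT, with neither passing. TOE2 had 0.47 in eif4e (adjusted p 2.9e-04) and 0.42 in WT (adjusted p 4.7e-04), and TOE1 had 0.50 in eif4e (adjusted p 3.1e-04) and 0.61 in WT (adjusted p 8.1e-05). AP2 had -0.11 in eif4e and -0.034 in WT and passed in neither. RAV1 had 0.52 in eif4e and 0.47 in WT, TEM1 had 0.63 in eif4e and 0.52 in WT, and both genes passed in each genotype. TEM2 had 0.53 in eif4e (adjusted p 0.0571) and 0.63 in WT (adjusted p 0.0257). TEM1, RAV1 and TOE1 were thus higher on ribosomes with and without the length term in both genotypes, whereas the direction of SMZ in both genotypes and of SNZ and TOE2 in WT turned with it. The calls of SNZ and AP2 in both genotypes were lost with it, and TOE2 and SMZ gained one in WT. With the length correction and the replicate block together, SMZ also passed as lower on ribosomes in eif4e (-0.26, adjusted p 0.0409, edgeR). AP2 did not pass there.

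**Figure D4:**
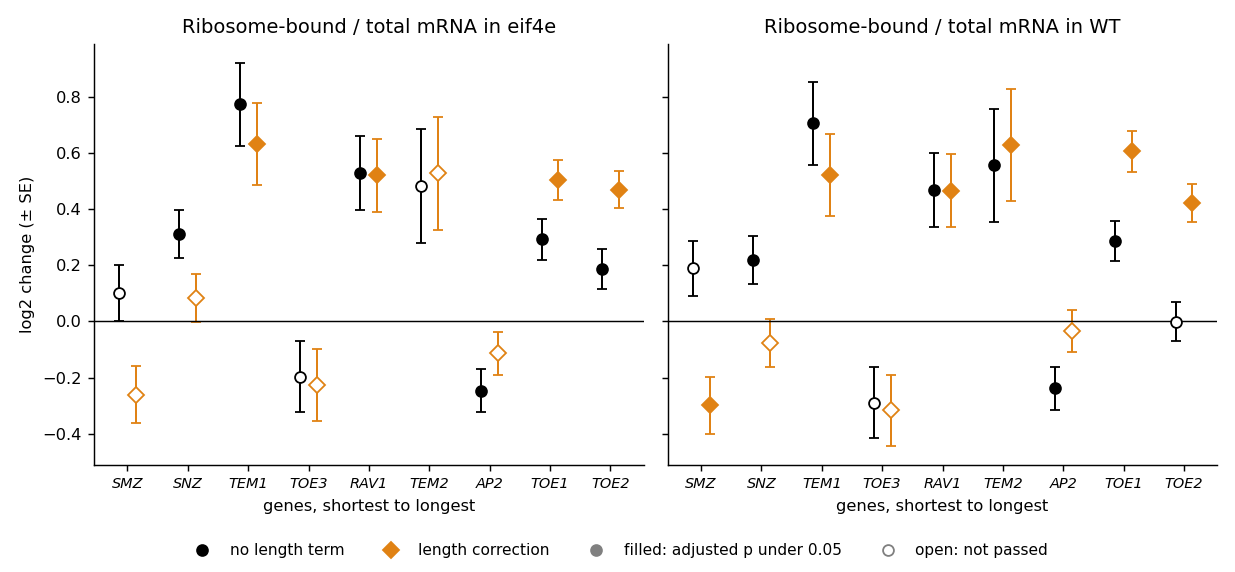
Log2 change of ribosome-bound over total mRNA (vertical axis, ± SE) for each gene in eif4e and in WT, with genes ordered from the shortest to the longest. Circles are the fit without a length term and diamonds the length correction, and filled symbols have an adjusted p under 0.05. SMZ lies at 0.19 in WT without the length term and at -0.30 with it, whereas RAV1 lies at 0.47 in both.

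Genes that act with or below these repressors were taken from fixed lists. Of all tested genes, 10.4% were called higher and 6.54% lower in total mRNA of eif4e. The shares were 15.4% and 12% on ribosomes, and 1.67% and 2.35% in the interaction. FT, the florigen gene that TOE1, TOE2, SMZ, TEM1 and TEM2 repress, was lower in the mutant on ribosomes. It had 3.98 to 4.51 FPKM (mean 4.17 ± 0.296) in ribosome-bound eif4e, against 5.76 to 8.03 FPKM (mean 7.11 ± 1.199) in ribosome-bound WT (SD, n = 3 each). The groups lay apart and the log2 change was -0.72 ± 0.18 (adjusted p 0.0146, edgeR). The call held with each library left out (adjusted p at most 0.0495) and with the length correction (-0.59, adjusted p 0.0497). In total mRNA FT had a mean of 1.93 ± 0.351 FPKM in eif4e and of 2.86 ± 0.570 FPKM in WT, with a log2 change of -0.43 ± 0.20 that did not pass (adjusted p 0.161). The interaction of FT was -0.29 ± 0.27 (adjusted p 0.635), so the changes in the 2 kinds of mRNA were not shown to differ.

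Of 12 downstream targets, 6 were tested. AGL24, a floral promoter, fell in total mRNA (log2 change -0.72 ± 0.16, adjusted p 0.0119), the only 1 of the 6 to pass there, and 0 rose. The AGL24 call was lost without total eif4e replicate 3 (adjusted p 0.0526). On ribosomes AGL24 (-0.53 ± 0.15, adjusted p 0.0254) and FT fell and 0 rose, and AGL24 lost its call there without eif4e replicate 2 or 3 or WT replicate 2 or 3 (adjusted p up to 0.0789) and with the length correction (adjusted p 0.0609) or a fit of only the compared groups (log2 change -0.53). SOC1, which AP2 is known to repress, averaged 13.2 ± 3.41 FPKM in ribosome-bound eif4e and 18.7 ± 2.63 FPKM in ribosome-bound WT and did not pass. The median log2 change of the tested targets was -0.35 in total mRNA and -0.39 on ribosomes. AP1, a floral identity gene, had a mean of at most 0.043 FPKM in any group.

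The miR172 precursors could not be followed. MIR172A, MIR172B and MIR172D had group means of at most 0.661 FPKM, so 0 of the 5 listed precursors were tested, and MIR172C and MIR172E had no row. Of the 11 miR156-regulated SPL genes, some of which promote MIR172 expression, 9 were tested. SPL13A and SPL13B are near-identical copies, and SPL13B had no row. How the counting treated reads that match both copies is not given. SPL3 rose in total mRNA, with a mean of 5.498 ± 0.713 FPKM in eif4e and 2.54 ± 0.702 FPKM in WT (log2 change 1.24 ± 0.32, adjusted p 0.0236), and 0 of 9 fell. That call was lost without total eif4e replicate 1 or 3 or total WT replicate 2 or 3 (adjusted p up to 0.0851). On ribosomes 0 of 9 rose or fell.

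The microRNA machinery, which produces and loads miR172 among others, had 7 tested members. In total mRNA HYL1, the partner of the processing enzyme, rose (log2 change 0.42 ± 0.12, adjusted p 0.0328) and DCL1, that enzyme, fell (-0.37 ± 0.07, adjusted p 0.00632). On ribosomes DCL1, HYL1, SE, HEN1, AGO1 and HST rose, 6 of 7 (15.4% of all tested genes rose), with a median log2 change of 0.31. DCL1 had a mean of 2.88 ± 0.230 FPKM in ribosome-bound eif4e and 2.502 ± 0.207 FPKM in ribosome-bound WT. Its call there was lost with DESeq2 (adjusted p 0.0554), library size alone (0.0727), a fit of only the compared groups (0.113) and limma at either pseudocount (0.132 and 0.158), and its direction turned with the length correction (log2 change -0.079, adjusted p 0.323). HEN1 kept its call on ribosomes with the replicate block alone (adjusted p 0.0388) and lost it under the other 9 settings run for it, DESeq2 included (adjusted p 0.0511 to 0.598). AGO1 lost its call in a fit of only the compared groups (0.0714), and HYL1 in total mRNA with library size alone (0.105) and limma (0.102 and 0.117). These are long genes, 5 of the 6 at length percentiles from 85.4 to 99.6, and with the length correction 2 of 7 passed, HYL1 at 0.61 (adjusted p 0.00768) and SE at 0.24 (adjusted p 0.0135). In the interaction DCL1 (0.62) and HST (0.47) were called higher, and 0 were with the length correction, and HST was also lost with no filter on low values (adjusted p 0.0584). With each of the 12 libraries left out in turn, DCL1 in total mRNA and in the interaction and HYL1, SE and HST on ribosomes passed every time. On ribosomes the call of AGO1 was lost in 3 of the 12 fits, that of DCL1 in 5 and that of HEN1 in 8 (adjusted p up to 0.174), the total mRNA call of HYL1 in 5 (up to 0.115) and the interaction of HST in 9 (up to 0.0971).

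AP2-like proteins and the TEM and RAV proteins recruit TOPLESS corepressors. Of 13 corepressors and protein partners, 0 passed in total mRNA. On ribosomes 5 rose (15.4% of all tested genes) and 0 fell (12% of all tested genes). These 5 were TPL (log2 change 0.46 ± 0.07, adjusted p 0.00249), TPR1 (0.46), TPR2 (0.38), TPR3 (0.36) and TPR4 (0.40). TPL had 27.1 to 30.5 FPKM in ribosome-bound eif4e, against 20.4 to 24.5 FPKM in ribosome-bound WT, and the groups lay apart. TPR1, TPR2, TPR3 and TPR4 were also called higher in the interaction, by 0.39 to 0.53. All 5 genes lay at length percentile 96.5 or above, and with the length correction TPL (0.20, adjusted p 0.0296) and TPR1 (0.22, adjusted p 0.0373) still passed on ribosomes and 0 did in the interaction. With each library left out in turn, TPL, TPR1, TPR2 and TPR4 passed on ribosomes every time, and TPR3 lost its call without replicate 1 or 2 of ribosome-bound eif4e or of ribosome-bound WT (adjusted p 0.0542 to 0.0650). The interaction calls were lost in 4 of 12 such fits for TPR1, 9 for TPR2, 9 for TPR3 and 10 for TPR4 (adjusted p up to 0.120).

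Few relatives of the 9 genes passed. Of 7 other RAV and NGATHA genes, 4 were tested, 0 passed in total mRNA, and on ribosomes NGA1, which shapes leaves and the style, fell (log2 change -0.30 ± 0.08, adjusted p 0.02) and 0 rose. That call was lost without replicate 1 or 2 of ribosome-bound eif4e or of ribosome-bound WT (adjusted p 0.0587 to 0.0772). Of 11 other AP2-subfamily genes, 7 were tested, AIL6, a regulator of organ initiation, fell in total mRNA (-0.66 ± 0.15, adjusted p 0.0130, and at most 0.0493 with any library left out) with 0 rising, and 0 passed on ribosomes.

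Between ribosome-bound and total mRNA, the lists gave these counts of called genes, without the length correction. Of all tested genes, 29.1% were higher and 29.3% lower in eif4e, and 33.8% higher and 33.6% lower in WT. Of the microRNA machinery 0 were higher and 5 lower in eif4e, and 0 higher and 7 lower in WT. The SPL genes had 2 higher and 5 lower of 9 in each genotype, and the corepressors and partners 3 higher and 8 lower of 13 in each. The downstream targets had 4 higher and 0 lower of 6 in each genotype. The other RAV and NGATHA genes had 2 higher of 4 in eif4e and 1 in WT, with 0 lower, and the other AP2-subfamily genes had 1 higher and 1 lower of 7 in eif4e and 1 higher and 2 lower in WT.

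Across the 12 libraries, TEM2 and RAV1 varied most alike among the 9 genes, with a Pearson correlation of log2(FPKM + 1) of 0.907, followed by TOE1 and SNZ at 0.797. TEM1 and TOE3 ran opposite at -0.833. The libraries share their group, kind of mRNA and scaling, so these are descriptions. Of 8492 tested genes with a symbol, those most like TEM2 were SIB1 (0.946), MKK9 (0.940) and TI1 (0.934), and those most like TOE1 were PP2A-1 (0.934), ATE1 (0.929) and TKPR2 (0.927).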

How the data were processed

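Total and ribosome-bound mRNA of eif4e and WT seedlings was sequenced in 12 libraries with a stranded, polyadenylation-selecting kit. Per the submitters' processing notes, TopHat2 2.0.11 and the TAIR10 build were used; the read counting step is not given in the sources. The deposited tables hold raw read counts per gene and FPKM values that the authors computed from them. Where a table left a gene out, 0 counts were assumed, which concerned 3308 genes with at most 51 counts in any other table.

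As foreseen for tables with counts, genes averaging 1 FPKM or more were fitted in edgeR 4.0.16 (R 4.3.3): TMM scaling, 1 mean per group over all 12 libraries, 8 residual degrees of freedom, common dispersion 0.0185, quasi-likelihood tests, two-sided, with Benjamini-Hochberg adjustment within each of 5 contrasts and a threshold of 0.05. SEs come from the estimate and its F statistic. The scripts were tested on simulated data. FPKM means were also compared by exact permutation tests. A library value of a member rested on 169 (TOE3) to 7519 (TEM2) counts. No 2 replicates were alike within counting error (chi-square over degrees of freedom 7.07 to 29.2). Whether replicates are separate cultures is not stated, so p-values cover only the spread between these libraries, which may be technical.

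The 9 members and all lists were chosen with earlier results of these data known. All members were named, list genes where they passed a test (and FT), and the 3 most correlated genes of the top member of each family. SOC1, AP1, SPL13A, SPL13B and the miR172 precursors were also named, without a call for the genotype. RefSeq symbols (TAIR10.1) matched 25710 identifiers.

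Libraries of the same replicate number tended to vary alike. In all 18 pairs of same-numbered libraries of different groups, the deviations from the group means correlated, at 0.186 to 0.795. Differently numbered pairs ran from -0.727 to 0.299. For replicate 1 across genotypes the number did not always mark the closest library. Total eif4e replicate 1 correlated at 0.299 with ribosome-bound WT replicate 3 and at 0.186 with replicate 1. The fit with the number as a block was therefore an alternative, beside other scalings, filters, DESeq2 1.42.0, limma 3.58.1 on log2(FPKM + 1) or log2(FPKM + 0.1), fits of only the compared groups and leaving out each library. The length correction, alone and with the block, was added after the data had been seen. It used gene lengths computed back from counts and FPKM and a lowess curve for each library as an offset.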

Additional observations from a re-analysis of the deposited data

How the results depend on the processing

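The 45 changes of the 9 genes were recomputed under 23 other settings, leaving out each library included, which gave 1026 values. A change that did not pass and lay within 1 SE of 0 in both fits was counted as having no direction. Of the values, 932 kept their side of the threshold and were not counted as turned round. Among these 932, 73 changed sign within 1 SE of 0 in both fits. A further 56 lost the call, 18 gained it and 20 turned round.

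With library size alone, 0 genes were called higher in ribosome-bound eif4e against 1 in the report, 1 lower in total eif4e against 0, and in WT 2 were higher on ribosomes against 5 and 2 lower against 1; limma with either pseudocount gave these same 4 counts. Of 19170 tested genes, library size alone called 2118 higher in ribosome-bound eif4e and 3034 lower in total eif4e. On ribosomes in WT it called 5479 higher and 7585 lower. In the same order limma called 1816, 3635, 5522 and 7574 at pseudocount 1, and 1880, 3418, 5488 and 7533 at pseudocount 0.1. The replicate block called 1 gene higher in total eif4e (TEM1) and 2 lower on ribosomes in WT (AP2 and TOE3). Over all tested genes the block called 3225 higher in total eif4e and 7155 lower on ribosomes in WT. Fitting only the compared groups called 0 higher in ribosome-bound eif4e (1348 of 19170 tested genes). The filter of 5 FPKM called 2 lower on ribosomes in WT (5189 of its 14501 tested genes). The length correction called 0 higher in ribosome-bound eif4e and 0 lower on ribosomes in eif4e. Over all tested genes it called 1639 and 3865 there. With the replicate block as well, 1 was lower in total eif4e (TOE2) and 2 were lower on ribosomes in WT. Over all tested genes these were 3465 and 5222. Leaving out 1 library gave 0 to 1 higher in ribosome-bound eif4e, 3 to 5 higher and 0 to 2 lower on ribosomes in WT, and 4 to 5 higher and 0 to 1 lower in eif4e. Over all tested genes the ranges were, in this order, 1684 to 2991, 5952 to 6553, 5971 to 6513, 4923 to 5611 and 4976 to 5671. The block also called TEM2 higher on ribosomes in eif4e (6 genes against 5) and changed no other call of the named genes. Over all tested genes 6326 were higher there with the block and 5570 without it. DESeq2 and the filter of 5 FPKM each called 4 genes higher on ribosomes in WT against 5.

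Directions turned as follows, as log2 changes. AP2 in total mRNA was -0.0089 with library size alone and -0.026 and -0.028 with limma at pseudocounts 1 and 0.1, and TOE1 -0.082 and -0.083 with limma. With the length correction, SMZ on ribosomes was -0.26 (eif4e) and -0.30 (WT), SNZ -0.077 and TOE2 0.42 (WT), and for the genotype on ribosomes TOE2 was -0.11 and DCL1 -0.079. With the replicate block as well, SMZ was -0.26 and -0.29, SNZ -0.079, TOE2 0.42 and -0.11, DCL1 -0.080, and TOE1 -0.060 for the genotype on ribosomes and -0.10 for the interaction. Leaving out a library, TEM2 ranged from -0.17 to 0.26 in total mRNA and from -0.27 to 0.23 in the interaction, and TOE3 from -0.094 to 0.17 on ribosomes. The causes were not tested.

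Calls over all genes moved too. Library size alone gave 1022 higher and 3034 lower genes in total mRNA (25.2% higher, against 2001 and 1253, 61.5%). It gave 44.2% against 56.2% higher on ribosomes and 63.6% against 41.6% in the interaction. The replicate block gave 3225 and 2879 in total mRNA and 875 and 1062 in the interaction (321 and 451 without it), the length correction 4 and 130 in the interaction, and only the compared groups 1348 and 1362 on ribosomes (against 2943 and 2293).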
